A study of Mus musculus with 4 samples.

Results

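Accessible chromatin was examined at 10 imprinted genes of the mouse, *H19*, *Igf2*, *Kcnq1ot1*, *Cdkn1c*, *Peg3*, *Snrpn*, *Mest*, *Plagl1*, *Meg3* and *Dlk1*. It was also examined at 8 intervals at or near these genes, taken as imprinting control regions. The genes were chosen by name from 55413 annotated genes, and every ATAC-seq peak in a gene body or within 20 kb of it (GENCODE vM21, GRCm38) was taken. Of 64360 peaks in 4 lists, 14 met this rule, and they fell into 9 distinct regions around 5 of the genes. *H19*, *Igf2*, *Snrpn*, *Mest* and *Dlk1* had no peak in any list.

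Nuclei came from aortas of untreated mice at P60 (60 days of age), either control (Col3a1+/+) or heterozygous for a collagen type III glycine substitution (Col3a1G938D/+), a model of vascular Ehlers-Danlos syndrome (VEDS). Each of the 4 libraries pooled tissue from 2 mice of the same sex, so a genotype had 2 libraries that also differed in sex. The labels name no strain. Libraries were made with a single-cell ATAC kit and analyzed in aggregate, and neither parental allele nor cell type can be read from the lists.

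The lists were unequal in length, with 21176 peaks in control female and 41444 in VEDS male (the long lists) but 1236 in control male and 504 in VEDS female (the short lists). The median peak held 14 and 22 fragments at its summit in the long lists and 7 and 6 in the short lists, so a region without a peak was below detection in that library and was not taken as closed. Smooth muscle markers (*Acta2*, *Myh11*, *Tagln*, *Cnn1* and *Lmod1*) had a promoter peak at 5 of 5 genes in each long list and at 0 in each short list. The endothelial markers had one at 1 of 4 in control female and 3 of 4 in VEDS male, fibroblast markers at 2 and 1 of 3, adipocyte markers at 0 and 1 of 2, striated muscle markers at 1 and 2 of 3, and immune markers at 0 of 2 in both. In the short lists all of these stood at 0, so the aorta label could be checked in the long lists only.

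Imprinted genes are expressed from the allele of one parent. The choice is written in the germ line as DNA methylation of a control region, a CpG-dense stretch that is methylated on the maternal or the paternal copy and is kept that way in body tissues, in part by the zinc finger protein ZFP57, which binds a methylated hexamer. At the *H19*/*Igf2* locus the insulator protein CTCF binds the unmethylated maternal copy of the control region and separates *Igf2* from shared enhancers, and the long noncoding *H19* is made from that copy. At the *Kcnq1* locus the control region is the promoter of the antisense RNA *Kcnq1ot1*, whose paternal transcription silences neighbors such as *Cdkn1c*. YY1 is a zinc finger protein known to bind repeated sites in the *Peg3* control region. Because a control region is unmethylated on one chromosome copy, it can be accessible on that copy alone, which these peaks cannot resolve.

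The sequences below are from GRCm38 and show peaks and, for contrast, control regions or promoters without one. In the *Peg3* stretches, capitals mark matches to the YY1 core GCCATNTT on either strand. The first is shown because its region was in 3 lists. The second is shown for its 3 matches in a row, which lay in peaks of control female and VEDS male only.
Peg3 intron around the control male summit, chr7:6728342-6728641, plus strand: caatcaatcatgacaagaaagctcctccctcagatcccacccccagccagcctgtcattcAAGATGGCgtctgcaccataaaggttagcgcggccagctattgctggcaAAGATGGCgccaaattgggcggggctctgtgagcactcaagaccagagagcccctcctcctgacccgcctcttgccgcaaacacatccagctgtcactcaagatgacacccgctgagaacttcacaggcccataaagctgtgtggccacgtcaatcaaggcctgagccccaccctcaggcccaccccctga
Peg3 intron farther from the gene start, chr7:6727835-6727984, plus strand: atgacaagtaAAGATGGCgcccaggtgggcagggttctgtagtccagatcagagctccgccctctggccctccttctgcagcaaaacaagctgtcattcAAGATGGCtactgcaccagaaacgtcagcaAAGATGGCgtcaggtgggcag

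In the next set, capitals mark CpG dinucleotides, the units that carry the imprint. The first 3 windows of 200 bp lie around VEDS male summits at promoters, and the last 2 lie around the CpG-richest start sites of genes that had no peak, for contrast.
Kcnq1ot1 promoter, chr7:143296553-143296752, plus strand: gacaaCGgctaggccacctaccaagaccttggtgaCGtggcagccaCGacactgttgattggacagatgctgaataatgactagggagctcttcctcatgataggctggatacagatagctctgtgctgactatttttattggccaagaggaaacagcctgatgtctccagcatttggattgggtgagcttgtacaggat
Plagl1 promoter, chr10:13090627-13090826, plus strand: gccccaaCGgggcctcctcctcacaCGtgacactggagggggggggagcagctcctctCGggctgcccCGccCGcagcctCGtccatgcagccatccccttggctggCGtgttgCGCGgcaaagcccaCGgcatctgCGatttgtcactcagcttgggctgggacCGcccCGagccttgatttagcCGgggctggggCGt
Meg3 promoter, chr12:109540895-109541094, plus strand: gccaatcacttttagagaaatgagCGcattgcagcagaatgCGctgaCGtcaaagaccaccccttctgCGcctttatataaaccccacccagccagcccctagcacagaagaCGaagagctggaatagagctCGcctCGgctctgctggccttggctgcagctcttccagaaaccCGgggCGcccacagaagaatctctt
Mest CpG-richest start site, chr6:30737950-30738149, plus strand: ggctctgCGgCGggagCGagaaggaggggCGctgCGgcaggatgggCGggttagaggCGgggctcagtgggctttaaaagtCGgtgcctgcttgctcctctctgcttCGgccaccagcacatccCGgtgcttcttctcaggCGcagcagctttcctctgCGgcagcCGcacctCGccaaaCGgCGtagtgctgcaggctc
Snrpn CpG-richest start site, chr7:60005011-60005210, plus strand: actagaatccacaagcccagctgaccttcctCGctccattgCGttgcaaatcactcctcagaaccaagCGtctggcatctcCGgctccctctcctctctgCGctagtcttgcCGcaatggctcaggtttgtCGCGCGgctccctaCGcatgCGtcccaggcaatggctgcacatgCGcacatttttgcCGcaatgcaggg

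The last set shows CTCF matches of the *H19* type (CCGCGNGGNGGCAG on either strand), with the match in capitals and 10 bp on each side. All 3 lay in a control region without a peak.
H19 ICR match 1, chr7:142580299-142580332, plus strand: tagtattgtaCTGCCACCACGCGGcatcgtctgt
H19 ICR match 2, chr7:142580754-142580787, plus strand: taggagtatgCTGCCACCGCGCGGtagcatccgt
H19 ICR match 3, chr7:142582024-142582057, plus strand: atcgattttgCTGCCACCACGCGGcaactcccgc

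Peaks near the imprinted genes were few. Control female had 4 peaks at 3 genes (*Kcnq1ot1*, *Peg3* and *Plagl1*), control male had 1 at *Peg3*, VEDS female had 0, and VEDS male had 9 at 5 genes, *Cdkn1c* and *Meg3* being added. Thus 3, 1, 0 and 5 of the 10 genes had a peak in their window. The same rule found a peak at 64.1%, 4.61%, 3.20% and 73.5% of 21938 protein-coding genes, in that order of libraries. Per 100 kb of window, pooled over genes, the imprinted genes held 0.478 peaks in control female and 1.08 in VEDS male. Protein-coding genes held 1.66 and 2.94, and long intergenic noncoding genes 0.991 and 1.96. The medians over genes were 0 and 0.45 for imprinted genes, 1.53 and 2.42 for coding genes and 0 in both lists for noncoding genes. In control male and VEDS female the pooled densities were 0.12 and 0, against 0.0564 and 0.0387 for coding genes. In both long lists the imprinted windows thus held fewer peaks per length than coding windows. Against noncoding windows this held for the pooled density and not for the median. Neither difference was tested, and the short lists rest on 1 peak.

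**Figure D1:**
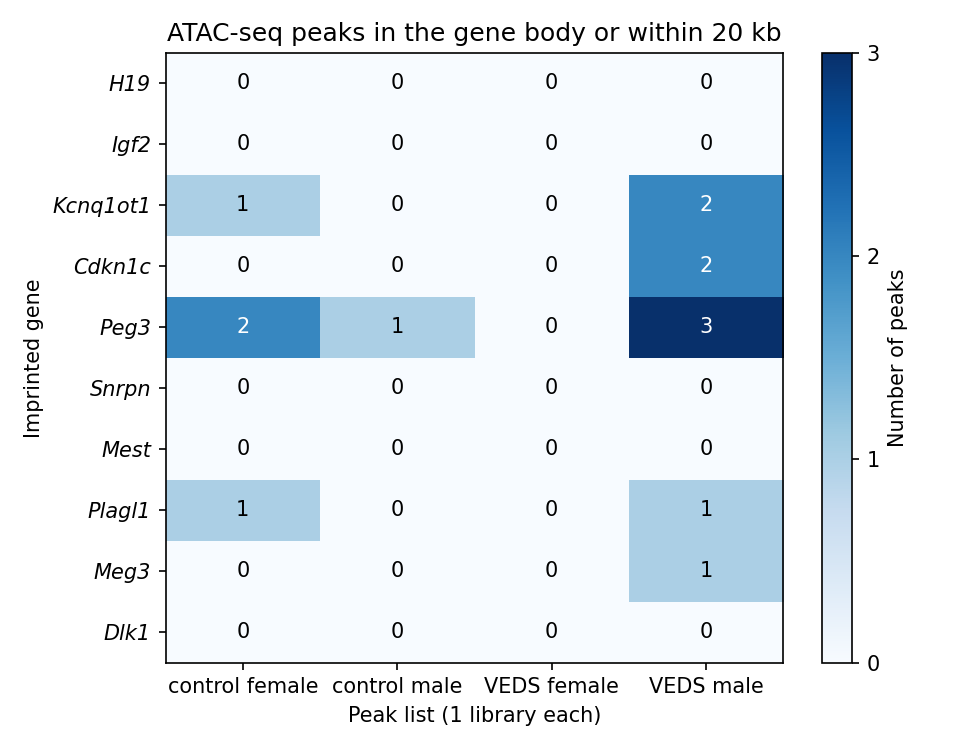
Number of peaks in the gene body or within 20 kb (color and printed number) for each imprinted gene (rows) in each list (columns, 1 library each). *Peg3* is the only gene with a peak in 3 lists, and 5 genes are at 0 in every list.

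A promoter peak, within 3 kb of an annotated transcription start site (TSS), was present at 3 of 10 genes in control female, 1 in control male, 0 in VEDS female and 5 in VEDS male. Among protein-coding genes these shares were 47.4%, 1.56%, 1.49% and 58.5%. The 50% of the VEDS male library lay near that background. By genotype, 3 genes had a promoter peak in either control library and 5 in either VEDS library, and in each genotype the long list alone gave that number. No test between genotypes was made, since 2 libraries against 2 allow no two-sided exact permutation p below 0.333, and genotype, sex and length of the list cannot be told apart here.

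The shares were also read against CpG content, since CpG-rich promoters are accessible in most cell types. A TSS was called CpG-rich where the 1 kb around it had at least 50% GC and a ratio of observed to expected CpG of at least 0.6. *Igf2*, *Cdkn1c*, *Peg3*, *Mest*, *Plagl1* and *Dlk1* had such a TSS, with 48 to 110 CpG in the 1 kb. A promoter peak was present at 2 of these 6 in control female (*Peg3* and *Plagl1*) and at 3 in VEDS male (with *Cdkn1c*), while 75.2% and 87.4% of 11242 protein-coding genes with a CpG-rich TSS had one. *Igf2*, *Mest* and *Dlk1* were the CpG-rich genes without any peak. The noncoding RNA genes *H19* and *Meg3* had a promoter peak at 0 of 2 in control female and 1 of 2 in VEDS male, where 12.0% and 19.7% of long intergenic noncoding genes had one.

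**Figure D2:**
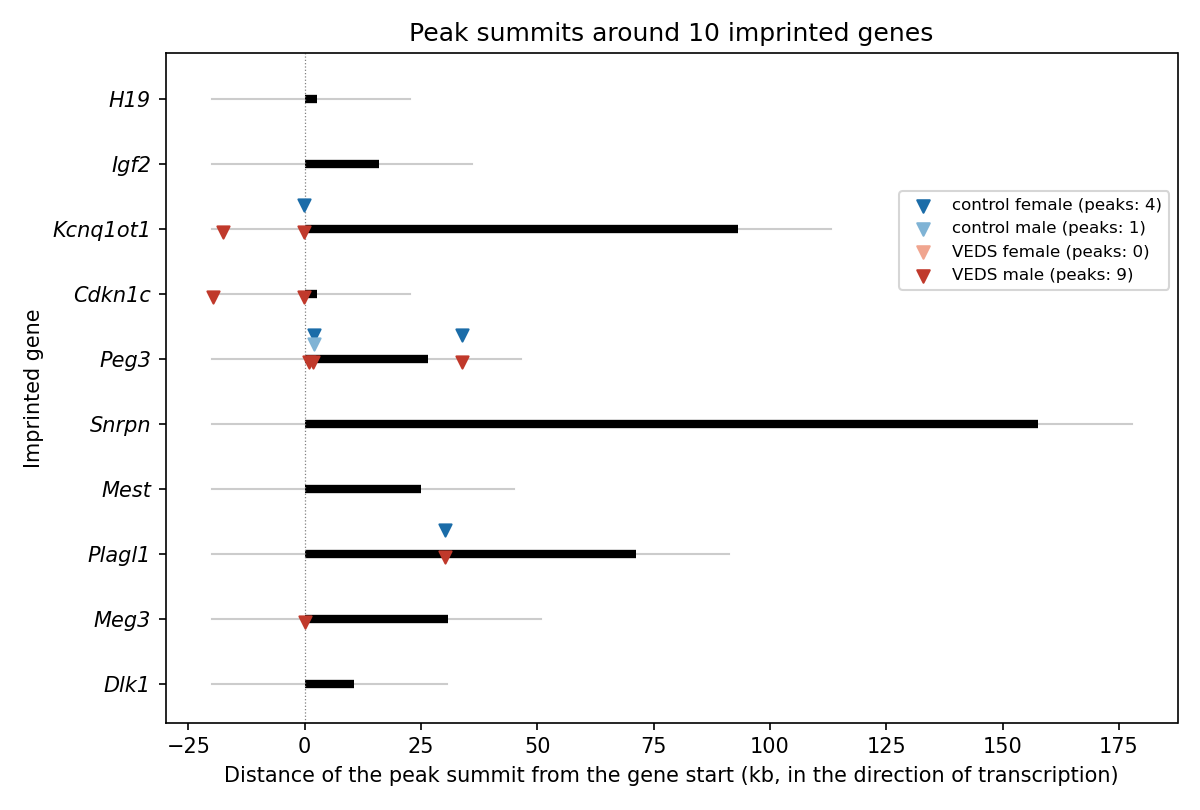
Position of each peak summit (triangles, colored by list) relative to the gene start in kb, in the direction of transcription; black bars are gene bodies and grey lines the 20 kb on each side. Summits lie at or near the start of *Kcnq1ot1*, *Cdkn1c*, *Peg3* and *Meg3*, and others lie upstream of *Kcnq1ot1* and *Cdkn1c*, inside *Plagl1* at 30.2 kb and beyond the end of *Peg3* at 33.9 kb.

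*Peg3*, which encodes a paternally expressed zinc finger protein, carried the most peaks, and its first intron was the only region here present in 3 lists. The share of all control male peaks that overlap both long lists was not computed. Presence in 3 lists is therefore not read as particular to *Peg3*. The intron peak spanned 1388 bp in control female (chr7:6727582-6728969), 309 bp in control male (chr7:6728368-6728676) and 1470 bp in VEDS male (chr7:6727458-6728927). Its summits lay 2009, 1939 and 1750 bp downstream of the gene start in the same order. The control male peak lay wholly inside the other peaks. The summit held 24 fragments over a local background of 3.04 in control female, 8 over 0.822 in control male and 72 over 8.46 in VEDS male. On the deposited scales, fold enrichment was 6.19, 4.94 and 7.71 and −log10 q was 10.9, 3.03 and 37.9. In its own list the peak ranked 7969 of 21176, 787 of 1236 and 5278 of 41444 by −log10 q. The peak was wider than 99.5% of the peaks in control female and 99.4% in VEDS male, but than only 18.4% in control male, where the median width was 687 bp.

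The gene start of *Peg3* itself was not covered. The nearest peak was in VEDS male, 203 bp wide (chr7:6729490-6729692) with its summit 877 bp inside the gene, 42 fragments, a fold enrichment of 4.55 and a −log10 q of 13.5. *Usp29*, which is transcribed in the opposite direction from the same promoter region, counts the intron peak as its own promoter peak, because its start lies within 3 kb. In VEDS female the nearest peak lay 340651 bp from *Peg3*, so the intron peak was present in both control lists and in VEDS male.

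**Figure D3:**
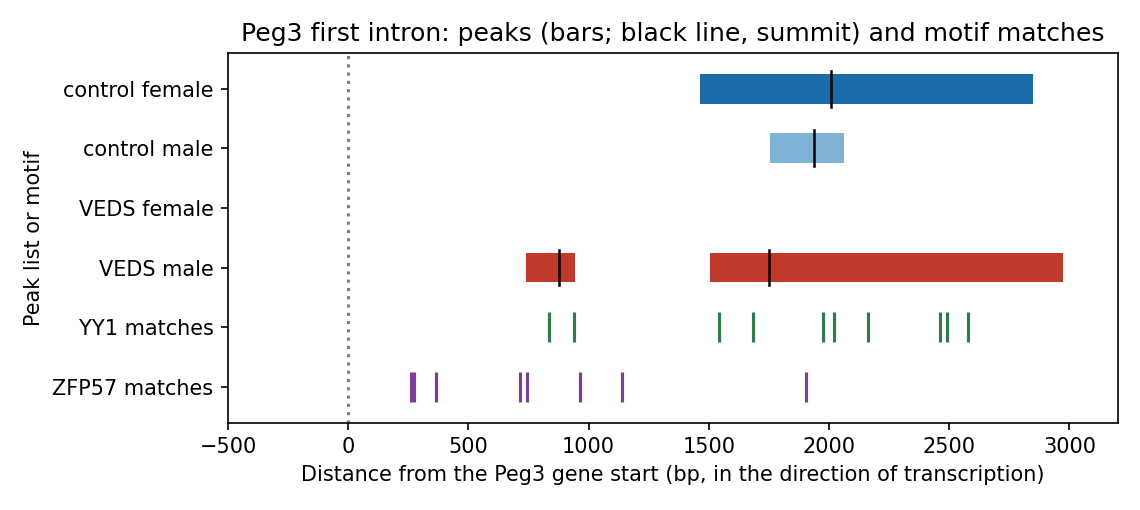
Peaks in the first intron of *Peg3* by list (bars; black line, summit) and matches to the YY1 core and the ZFP57 hexamer, by distance from the gene start in bp. The long peaks of control female and VEDS male and the short peak of control male overlap, and YY1 matches run through them while most ZFP57 matches lie nearer to the gene start.

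The intron was dense in YY1 matches. The 1512 bp covered by the overlapping peaks held 8 matches, or 5.29 per kb, and the smaller VEDS male peak held 1 more, from 835 to 2579 bp downstream of the gene start. Of these 9 matches, 8 read AAGATGGC on the plus strand and all 9 had the same orientation. Among peaks at least 1 kb wide, 17.9% of 179 in control female and 24.9% of 655 in VEDS male held a YY1 match, and the median was 0 matches in both lists. As many as 8 matches were held by 9 of the wide peaks in control female and 16 in VEDS male, the *Peg3* peak included. Of those, 8 and 15 were mostly soft-masked repeat sequence, and the *Peg3* peak, with 3.17% and 2.99% of its bases masked, was the remaining one in each list. In 300 bp around the summit, 2 or more YY1 matches occurred in 0.506% of peaks in the control female list, 2.7% in control male and 0.467% in VEDS male. At least 1 match occurred in 7.28%, 19.2% and 6.38% of peaks in the same lists. For RefSeq promoters of that length, the share with at least 1 was 6.05%. The control female and control male summits of *Peg3* had 2 each and the main VEDS male summit 1. A match is a string of letters and not a bound site.

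A second region in the *Peg3* window lay 33.9 kb from its start, past the end of the gene, and coincided with the TSS of *Zim1*, an imprinted zinc finger gene. It held 12 fragments in control female (chr7:6696429-6696631, fold 8.26, −log10 q 9.75) and 48 in VEDS male (chr7:6696349-6696645, fold 16, −log10 q 44.4). The VEDS male peak had a higher fold enrichment than 96.6% of its list and was the strongest of the 14 by both −log10 q and fold. It belongs to *Zim1* by position and entered through the 20-kb rule.

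*Kcnq1ot1*, the antisense RNA that starts in an intron of *Kcnq1*, had a promoter peak in both long lists. The peak was 239 bp wide in control female (chr7:143296529-143296767) and 488 bp in VEDS male (chr7:143296457-143296944), and both covered the TSS, with summits 118 and 104 bp upstream of it. The summits held 17 and 38 fragments over a local background of 0.812 and 2.38. Fold enrichment was 9.93 and 11.5 and −log10 q was 14.1 and 29.2, ranks 5604 of 21176 and 7917 of 41444. This was the strongest control region by fold in both lists. The 300 bp around the summit held none of the motifs searched and had a GC content of 52.3% and 53%. A second peak, VEDS male only, lay 17571 bp upstream in *Kcnq1* with 11 fragments and a −log10 q of 4.94.

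*Cdkn1c*, the cyclin-dependent kinase inhibitor silenced on the paternal copy by the *Kcnq1ot1* domain, had peaks in VEDS male only. Its promoter peak covered the gene start and held 35 fragments over a local background of 3.05, with a fold enrichment of 8.88 and a −log10 q of 22.1. The nearest control female peak was 68809 bp from the gene. A weaker VEDS male peak upstream of the gene held 10 fragments, with a −log10 q of 3.45.

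*Plagl1*, which encodes a growth-restraining zinc finger transcription factor, had its peak at an internal CpG-rich promoter and not at the gene start. The peak was 200 bp wide in control female (chr10:13090631-13090830) and 334 bp in VEDS male (chr10:13090574-13090907), with summits 30272 and 30223 bp downstream of the gene start. The summits held 7 and 18 fragments, with fold enrichments of 5.37 and 7.79 and −log10 q of 4.31 and 11.8. These were modest values, at rank 17404 of 21176 and 20045 of 41444. The region had 69.7% GC and held 1 ZFP57 hexamer in both lists, and it is the promoter taken here as the *Plagl1* control region.

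*Meg3*, a maternally expressed long noncoding RNA, had 1 peak, in VEDS male, at its promoter (chr12:109540836-109541097, 262 bp). The summit was 6 bp upstream of the gene start and held 13 fragments over 1.61, with a fold enrichment of 5.37 and a −log10 q of 6.04, rank 30621 of 41444. The nearest control female peak to *Meg3* was 24166 bp away and held 6 fragments. *Dlk1*, a paternally expressed transmembrane protein related to NOTCH ligands in the same cluster, had none in its window, but 1 peak lay just beyond it, 20031 bp away in VEDS male (24 fragments, fold 8.74, −log10 q 16.1) and 20141 bp away in control female (9 fragments, fold 5.44).

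**Figure D4:**
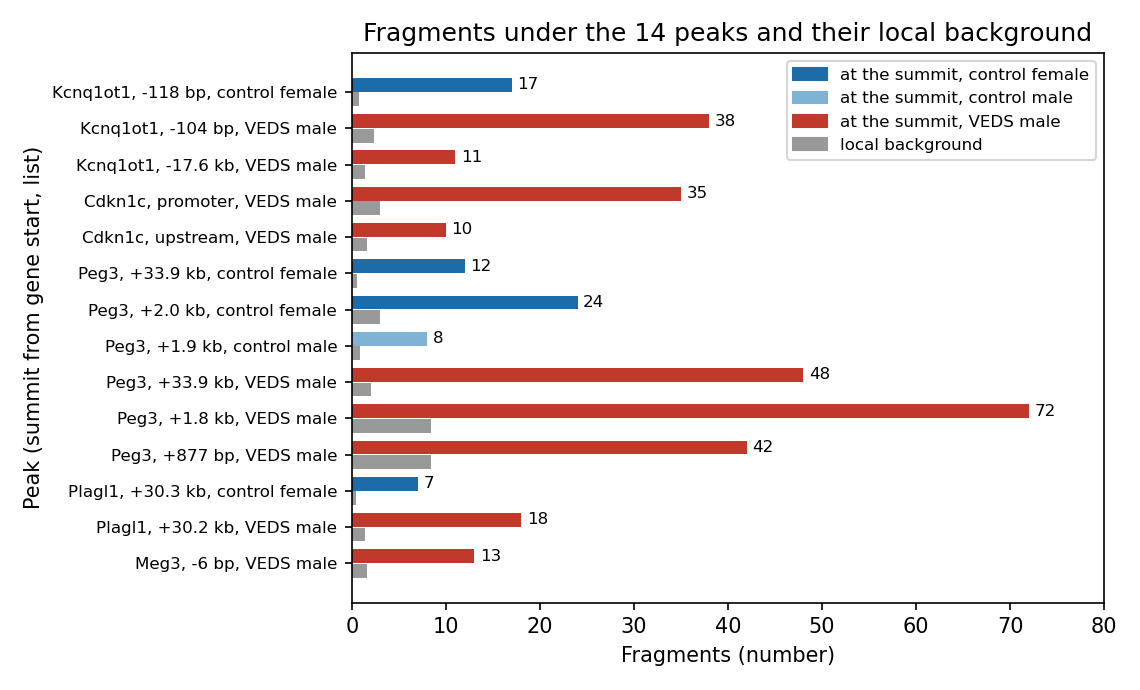
Fragments at the summit (colored by list) and local background (grey), in numbers, for the 14 peaks, each named by its gene, the place or distance of its summit from the gene start and its list. The *Peg3* intron in VEDS male has the most fragments (72) and *Plagl1* in control female the fewest (7), and each summit stands above its own background.

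The other genes without a peak differed in their distance to one. For *H19*, the nearest peak in VEDS male was 32480 bp away and in control female 104388 bp. For *Igf2*, which encodes a fetal growth factor, these distances were 20641 and 179625 bp. *Snrpn*, which encodes a spliceosome protein, lay 203328 and 212439 bp from a peak, the most remote of the 10 in the long lists. *Mest*, a paternally expressed gene for a hydrolase-like protein, lay 29587 and 29614 bp from one, at *Cep41*. So no peak lay over a long stretch around *Snrpn* in either long list, while *Igf2*, *Mest* and *Dlk1* had peaks within 30 kb in VEDS male. The *Snrpn* window was 38% soft-masked repeat sequence, the highest share of the 10. Whether this lowered the number of mapped reads was not tested.

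Just inside the 20-kb limit were the VEDS male peaks upstream of *Cdkn1c* (10 fragments) and 17521 bp from *Kcnq1ot1* (11 fragments). Just outside it were VEDS male peaks near *Dlk1*, near *Igf2* (12 fragments), at 24079 bp from *Meg3* (11 fragments) and at 24756 bp from *Cdkn1c* (14 fragments). These VEDS male peaks held 10 to 14 fragments on both sides of the limit, apart from the one near *Dlk1*.

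The 8 control regions were the *H19* imprinting control region (ICR, 1.5 to 4.5 kb upstream of the gene start, chr7:142579643-142582643), the intergenic differentially methylated region (IG-DMR, 10 to 15 kb upstream of *Meg3*, chr12:109526001-109531001), and 2 kb on each side of the CpG-richest TSS of *Kcnq1ot1*, *Peg3*, *Snrpn*, *Mest*, *Plagl1* and *Meg3*. These intervals were set by distance or CpG content and not from published coordinates. Whether each carries methylation from the germ line was not examined. A peak lay in 3 of the 8 in control female (*Kcnq1ot1*, *Peg3* and *Plagl1*), 1 in control male (*Peg3*), 0 in VEDS female and 4 in VEDS male (with *Meg3*). For scale, 47.4%, 1.56%, 1.49% and 58.5% of protein-coding genes had a peak within 3 kb of a TSS, in that order of libraries. That measure differs from these intervals in width and kind. No share over like intervals was computed, so the counts are not read as high or low. Apart from the *Meg3* promoter, the regions with a peak in VEDS male were those of control female. The *H19* ICR, the IG-DMR and the *Snrpn* and *Mest* regions had none in any list. The nearest VEDS male peak was 27980 bp from the *H19* ICR and 9835 bp from the IG-DMR, the *Meg3* promoter peak.

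Among the control regions of 4 kb, ZFP57 hexamers (TGCCGC on either strand) were most numerous at *Mest* (12) and *Snrpn* (10), which had no peak, followed by *Peg3* (8), *Plagl1* (6), *Kcnq1ot1* (3) and *Meg3* (1). The IG-DMR held 10 in 5 kb and the *H19* ICR 6 in 3 kb, the same number per kb as *Peg3*. Of the *Peg3* matches 2 and of the *Plagl1* matches 1 lay inside a peak. In 300-bp windows at all summits, the hexamer was found in 13.6% of peaks in the control female list, 11% in the VEDS male list and 11.6% of RefSeq promoters of the same length. These shares count shorter windows with a match, so they give no background for the numbers per region. Whether the number of hexamers goes with the absence of a peak was not tested.

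The *H19* ICR held 3 H19-type matches, 2179, 2634 and 3904 bp upstream of the gene start. All 3 are on the same strand, and matches 1 and 3 share 4 bases with a ZFP57 hexamer. In all, 58 such matches occurred in the 2726 Mb searched. Because the pattern is itself of the *H19* type, its presence in this ICR is not an independent result. A more relaxed CTCF core had 4 matches in the ICR, those 3 sites included. In 300-bp windows the H19-type core was in 0.0284% and 0.0218% of peaks in the long lists. No peak overlapped the ICR, which says that fragments there did not pass the authors' threshold and nothing about CTCF binding.

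Among the 14 peaks, NRF1 (GCGCNTGCGC) was matched at 1, in the 300 bp around the smaller *Peg3* summit, while 5.82% and 3.52% of all peaks in the long lists held a match. Of the 10 genes, 8 had a RefSeq promoter (GRCm38.p6), and none of these promoters held a YY1, CTCF or NRF1 match.

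All 4 control female peaks overlapped a VEDS male peak, and 4 of the 9 VEDS male peaks (44.4%) overlapped a control female peak. Over whole lists these shares were 95.0% and 47.6%, so the overlap at the imprinted genes lay near the background. The 5 VEDS male peaks without a partner were the *Meg3* promoter, the *Cdkn1c* promoter, the smaller *Peg3* peak and the upstream peaks of *Cdkn1c* and *Kcnq1ot1*. They held 10 to 42 fragments.

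On a list of 39 other imprinted genes, the shares with a promoter peak lay near those of all coding genes. The shares count genes and not separate peaks. *Sgce* and *Peg10* share a peak, for example, and the peaks of *Usp29* and *Zim1* also lie in the *Peg3* window. A promoter peak was present at 20 (51.3%) in control female and 23 (59%) in VEDS male, with 20 in both, and *Nnat*, *Ins2* and *Asb4* in VEDS male only. These VEDS male peaks held 17, 7 and 13 fragments, with −log10 q of 7.25, 1.81 and 7.07. The *Ins2* peak was near the floor, at rank 40963 of 41444. Of the 25 other imprinted genes with a CpG-rich TSS, 15 and 16 had a promoter peak in the long lists, against 75.2% and 87.4% of CpG-rich coding genes. The highest −log10 q was at *Inpp5f* (44 in control female and 115.3 in VEDS male), *Trappc9* (30.9 and 83.6) and *Ube3a*, the ubiquitin ligase gene of the *Snrpn* cluster (24.4 and 74). In control female *Copg2*, a neighbor of *Mest* (20.9, and 38.1 in VEDS male), and *Gnas*, which encodes a G protein subunit (19.4), came next. In VEDS male *Gnas* (52) and *Zim1* (44.4) came next. All of these exceeded the *Kcnq1ot1* value in VEDS male. Each value is that of the highest peak over every annotated TSS of the gene. Which TSS is imprinted in the aorta was not examined. In the short lists, the only promoter peaks were at *Usp29* in control male, which is the *Peg3* intron peak, and at *Gnas* in VEDS female (6 fragments, −log10 q 4.31). No promoter peak in any list was found at 16 genes, *Nespas*, *Ndn*, *Magel2*, *Mkrn3*, *Phlda2*, *Slc22a18*, *Ascl2*, *Kcnq1*, *Nap1l5*, *Rtl1*, *Rian*, *Dio3*, *Rasgrf1*, *Zdbf2*, *Slc38a4* and *Snurf*.

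*Ndn*, *Magel2*, *Mkrn3* and *Snurf* belong to the *Snrpn* cluster, so that *Ube3a* was the only gene of it on either list with a promoter peak. *Phlda2*, *Slc22a18*, *Ascl2* and *Kcnq1* belong to the domain of *Kcnq1ot1* and *Cdkn1c*. *Rtl1*, *Rian* and *Dio3* belong to the *Dlk1*-*Meg3* cluster, where *Mirg* had a promoter peak in both long lists (13 and 31 fragments).

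Of 14 genes for proteins that set or read imprints, 11 had a promoter peak in control female and 13 in VEDS male, and all 14 have a CpG-rich TSS, so these counts lay near the 75.2% and 87.4% of CpG-rich coding genes. *Zfp57* had none in any list. The highest −log10 q were at the cohesin genes *Rad21* (30.5 in control female and 63.8 in VEDS male) and *Smc3* (28.5 and 51.6). *Yy1* had 16.2 and 50.1 with 26 and 76 fragments, *Smchd1* 17.1 and 33.3, *Dnmt1*, the maintenance methyltransferase, 15.5 and 24.8, and *Uhrf1*, its partner, 13.2 and 35.5. *Ctcf* was lower, with 3.02 and 15.9 and 9 and 33 fragments. *Smchd1*, a chromosomal silencing protein, was the only one of the 14 with a promoter peak in a short list, in control male (5 fragments, −log10 q 2.49).

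**Figure D5:**
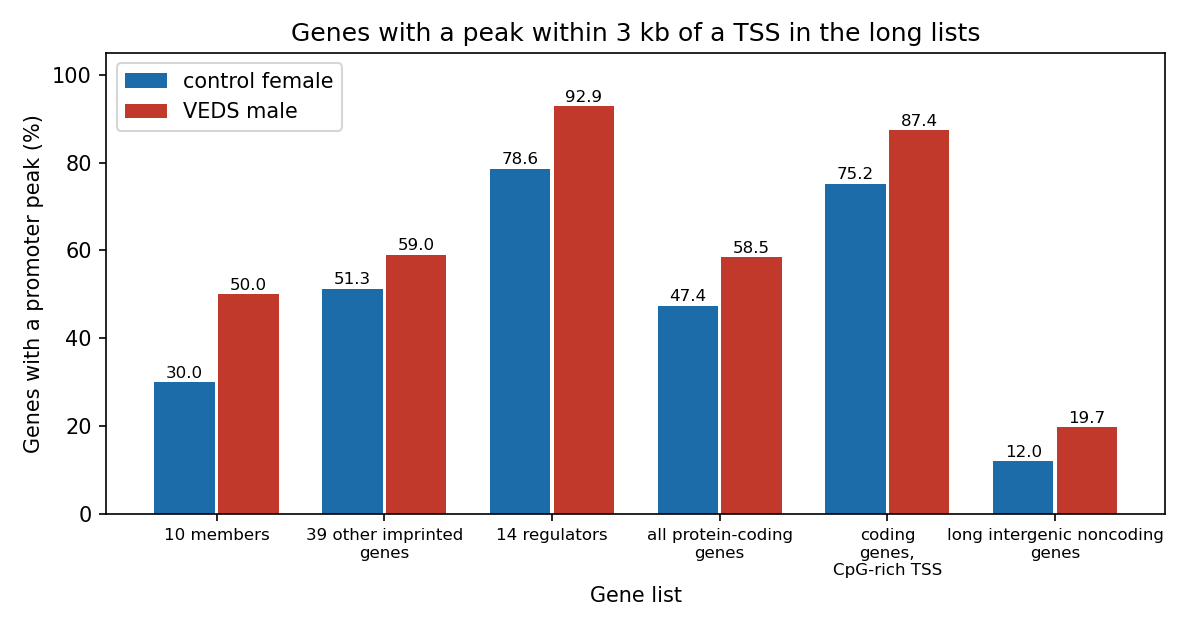
Share of genes with a peak within 3 kb of a TSS, in percent, in control female (blue) and VEDS male (red), for the imprinted genes studied here (members), 39 other imprinted genes, 14 regulators of imprints and 3 background groups. The members stand at 30% and 50%, and all coding genes at 47.4% and 58.5%. Of the 10 members, 6 have a CpG-rich TSS. The regulators (78.6% and 92.9%), which all have one, lie near coding genes with a CpG-rich TSS (75.2% and 87.4%).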

How the data were processed

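ATAC-seq peak lists of 4 libraries (2 mice each) were analyzed on GRCm38. The authors used mm10 for alignment and MACS2 for narrow peaks, after removing duplicates with the cell barcodes and correcting for the Tn5 cut, and left out blacklisted regions. The deposited columns hold a score (10 times the −log10 q, cut to a whole number), a fold enrichment (a ratio to local background) and −log10 p and −log10 q values. The peak threshold is not given in the sources used here. The lowest −log10 q was 1.31 in control female, 1.32 in control male, 1.32 in VEDS female and 1.3 in VEDS male. Fragments at a summit were recovered from the deposited fold and −log10 p under a Poisson distribution, in 99.3% to 99.9% of peaks. In 500 simulated peaks, 100% were recovered. Coordinates were matched to GENCODE vM21, promoters being 3 kb on each side of a TSS. Motifs were searched in 300 bp centered on summits, in Python 3.11.15 with pysam 0.24.0. Soft-masked bases are lower case in the reference. Printed sequences are from GRCm38.

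The members and lists were chosen with earlier results of these data known, and the CpG-rich definition after seeing them. All 10 members were named, with every short-list, promoter and control-region peak and the highest peak of each long list. Of the other imprinted genes and regulators, those with a promoter peak in a short list, the 5 highest of each long list and those with none were named. *Mirg*, *Ctcf*, *Nnat*, *Ins2* and *Asb4* were named after their values were seen. A further sequence item is not reported here. No test was made. Values were not compared between lists as a test, since each library was called separately. Alternatives were thresholds of 5 and 10 on −log10 q, equal list sizes, other windows, other motif settings and libraries left out.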

Additional observations from a re-analysis of the deposited data

Results flagged for a closer look

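The difference between VEDS and control ran in opposite directions in the sexes for 4 counts. VEDS minus control was -3 in females and 4 in males for imprinted genes with a promoter peak, and -4 and 8 for peaks in the gene windows. For control regions with a peak it was -3 and 3, and for the 39 other imprinted genes with a promoter peak -19 and 22. Each sex has 1 library per genotype and the difference was not tested. The numbers follow the length of the lists, 21176 and 504 peaks in control and VEDS females and 1236 and 41444 in control and VEDS males.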

How the results depend on the processing

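Of 88 counts recomputed under alternatives, 56 stayed within 1.5 times the reported count and 32 did not. The 56 include counts that were 0 from the start, as for peaks in the gene windows of VEDS female. A stricter threshold can only return 0 there, so the 56 do not measure how stable the other counts are. With each list limited to its 504 peaks of highest −log10 q, no library had a peak at the 10 genes or control regions. Promoter genes, window peaks and control regions then fell from 3, 4 and 3 in control female, 1, 1 and 1 in control male and 5, 9 and 4 in VEDS male to 0, and the shared VEDS male peaks from 4 to 0. Other imprinted genes numbered 1 in control female, 0 in control male and 2 in VEDS male. At a −log10 q of at least 10, control female window peaks were 2, shared VEDS male peaks 2 and other imprinted genes in control female 9. At 5 or 10, the control male counts for promoter genes, window peaks, control regions and other imprinted genes were 0, as was the *Gnas* count of VEDS female. With 50 kb on each side, window peaks were 8 in control female and 23 in VEDS male. With promoters of 1 kb, or control regions of 1 kb on each side, the control male counts were 0. Leaving out a library, the number of imprinted genes with a promoter peak in controls ranged from 1 to 3, falling to 1 without the female library, and in VEDS from 0 to 5, falling to 0 without the male library. The depth of 6 to 7 fragments at the median summit limits the short lists. No paired analysis was possible because the counts come from no test. The libraries match across genotypes by sex only.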
